A study of Rattus norvegicus with 9 samples.

Results

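A set of 36 glycolysis and hypoxia response genes was followed in whole fetal rat lungs. The genes had been listed by symbol and were matched to the table by NCBI Gene ID. Of them, 35 were among the 17465 genes of the table, and all 35 passed the minimum, a mean over the 9 libraries of at least 1 CPM (CPM, estimated counts scaled to one common library size). Egln1 was not analysed here. The 35 comprise 2 glucose transporters, 14 enzymes from hexokinase to pyruvate kinase, 4 genes of pyruvate and lactate handling, 2 enzymes that set the level of the phosphofructokinase activator, 3 subunits of the hypoxia-inducible factors (HIF), 2 genes of oxygen sensing and 8 further HIF targets.

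The lungs came from Sprague-Dawley rats in 3 groups of 3 libraries. Control lungs and hypoplastic lungs were untreated. The treated group was of hypoplastic lungs given AFSC-EV, extracellular vesicles from amniotic fluid stem cells. The series title names oligohydramnios, a shortage of amniotic fluid, as the setting of the hypoplasia, and the labels give neither the way it was brought about nor the fetal age, the litter, or the dose, route and time of treatment. The labels do not say that libraries of a group came from separate litters, so p-values measure the spread between these libraries only.

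Glycolysis splits glucose into pyruvate in the cytosol and yields ATP without oxygen. Lactate dehydrogenase then turns pyruvate into lactate, which regenerates the NAD+ that the pathway needs. When oxygen is plentiful, prolyl hydroxylases (the EGLN enzymes) mark HIF alpha subunits, and the VHL ubiquitin ligase has them degraded. When oxygen is scarce the alpha subunits persist, pair with ARNT and bind hypoxia response elements, so that transcription of glucose transporters, glycolytic enzymes and other targets increases. This control acts mainly on the HIF proteins, which RNA levels do not measure, and the fetal lung develops at a low oxygen tension.

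The core of a hypoxia response element is the letters ACGTG or GCGTG, read on either strand, so that CACGT and CACGC count as well and CACGTG counts as 2 overlapping matches. RefSeq promoters (assembly GRCr8, the 250 bases before the gene start) were found for 31 of the 35 genes, and Slc2a3, Pgk1, Ndrg1 and Ero1a had no entry. At least 1 match was present in 20 of the 31 (64.5%), beside 47.5% of the 13733 genes of the deposited table that have such a window and 39.6% of all 27457 genes with one. At least 2 matches were present in 13 (41.9%), beside 22.9% and 17.7%. The members all had a mean of at least 1 CPM, whereas the genes set beside them were not chosen by level. The members were not compared with genes of like level or promoter composition. A match is a run of letters and not a shown binding site. The windows of 4 members with 4 matches each are printed 5′ to 3′ on the gene's own strand, with the matches in capitals, to show where the motif lies in a glucose transporter, in a glycolytic enzyme and in 2 HIF targets. These 4 members had the most matches of the 31, so their windows are not typical of the set. Among the members with 0 matches were Hk2, Pkm, Slc16a3, Egln3, Adm and Car9. Slc2a1 lies on the plus strand at chr5:138002272-138002521, Ldha on the plus strand at chr1:106507842-106508091, Bnip3 on the minus strand at chr1:203154963-203155212 and Ankrd37 on the plus strand at chr16:53001257-53001506.
Slc2a1: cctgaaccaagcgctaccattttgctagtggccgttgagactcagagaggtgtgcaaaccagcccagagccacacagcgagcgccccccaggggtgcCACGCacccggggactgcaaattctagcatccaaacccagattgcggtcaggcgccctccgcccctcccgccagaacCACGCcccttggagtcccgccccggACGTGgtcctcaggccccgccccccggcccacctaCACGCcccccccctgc
Ldha: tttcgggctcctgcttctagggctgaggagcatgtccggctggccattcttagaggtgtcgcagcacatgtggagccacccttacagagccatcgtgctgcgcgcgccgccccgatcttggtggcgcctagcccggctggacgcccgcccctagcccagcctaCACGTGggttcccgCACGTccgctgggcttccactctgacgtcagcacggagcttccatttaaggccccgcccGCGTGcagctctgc
Bnip3: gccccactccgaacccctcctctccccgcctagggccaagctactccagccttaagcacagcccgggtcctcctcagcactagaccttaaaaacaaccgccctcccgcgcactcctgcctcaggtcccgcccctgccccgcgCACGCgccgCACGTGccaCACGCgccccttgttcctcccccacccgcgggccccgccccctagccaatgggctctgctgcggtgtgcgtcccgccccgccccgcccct
Ankrd37: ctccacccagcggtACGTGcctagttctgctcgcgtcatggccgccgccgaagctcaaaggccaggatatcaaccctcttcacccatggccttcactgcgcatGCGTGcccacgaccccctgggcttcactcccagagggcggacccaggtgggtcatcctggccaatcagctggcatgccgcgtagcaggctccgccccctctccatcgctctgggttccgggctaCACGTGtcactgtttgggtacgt
In Ldha and Bnip3 the matches include a CACGTG within a cluster of further matches. These windows give the context of the genes whose levels follow, and nothing in the data measured binding there.

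Library totals ran from 56922779 to 88243188 estimated counts. Ribosomal and 7SL RNA held 16%, 19.9% and 14.7% of the counts in control libraries 1, 2 and 3, 14.4%, 14.1% and 18.3% in the hypoplastic and 15.2%, 16.7% and 16.2% in the treated libraries. All 6 lung epithelial markers had counts in every library, with summed levels of 2560 to 5390 CPM. Of 5 liver markers none had counts in every library, and Fgb was at 0 in all. Their sum was 5.87 CPM in control library 2 and at most 0.197 CPM in the other 8. In control library 2 Apoa1 alone held 5.65 CPM of the sum, and Alb was at 0.0357 CPM. The expression of Xist, with a cut at 1000 CPM set after the values were seen, placed control libraries 1 and 2, hypoplastic library 3 and treated library 3 as male and the other 5 as female, so the sexes were not balanced between the groups.

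The 35 genes varied between libraries of the same group, often in the same direction. In hypoplastic library 1, 22 of the 35 had their highest level of the 9 libraries, against 13.7% of the 11392 genes with a mean of at least 1 CPM. A further 8 peaked in hypoplastic library 2, against 15.5% of those genes. In control library 2, 21 of the 35 had their lowest level, against 22.7% of those genes. The median of the members' log2 deviations from their own mean over the libraries was 0.11, −0.45 and 0.01 in control libraries 1, 2 and 3. It was 0.46, 0.20 and −0.15 in the hypoplastic and −0.27, 0.29 and 0.02 in the treated libraries. Over the 11392 genes it stayed between −0.016 and 0.005. Each group therefore contained libraries above and below the overall level, and the groups overlapped on this measure. Among the control and hypoplastic libraries, the 2 with the lowest medians, control 2 and hypoplastic 3, held the highest shares of ribosomal and 7SL RNA, and the 2 with the highest medians, hypoplastic 1 and 2, held the lowest. Within the treated group the order was reversed. Library 1 had the lowest median and the lowest share (15.2%), and library 2 the highest of both (16.7%). The part of this share in the members' levels was not tested.

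**Figure D1:**
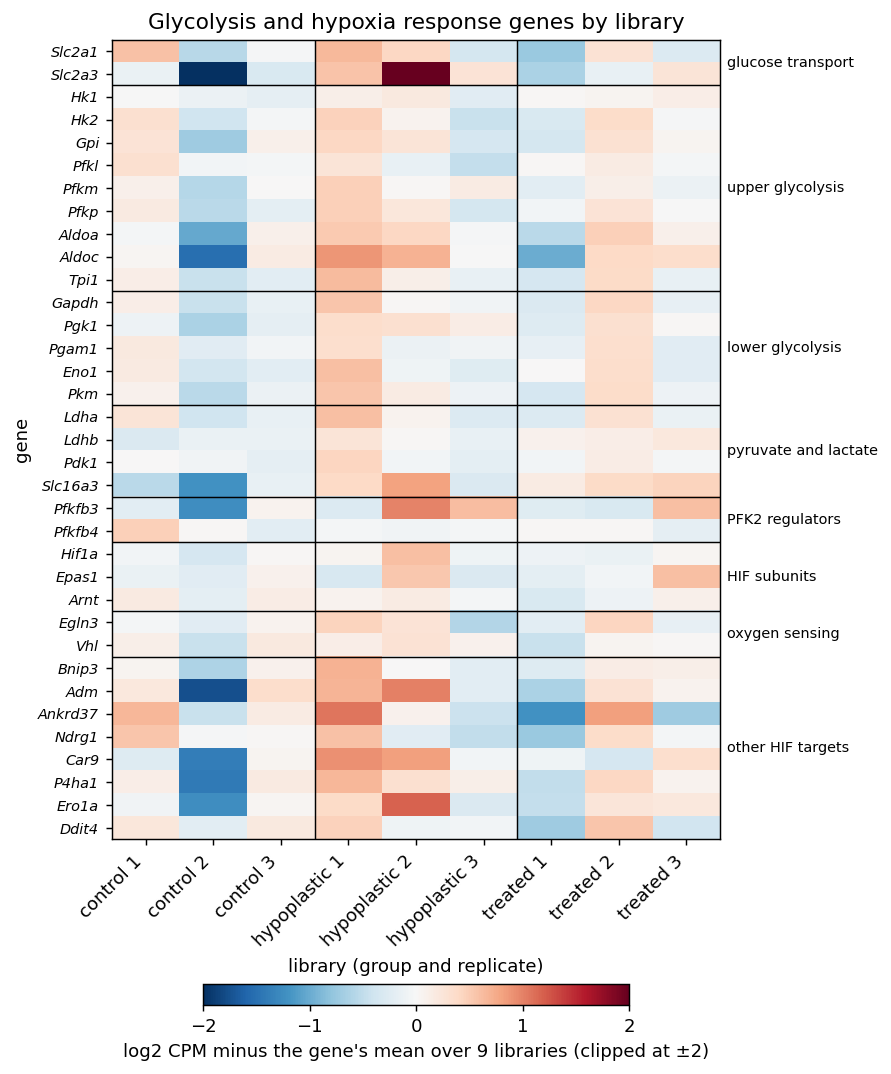
Level of each of the 35 genes (rows, ordered by role) in each of the 9 libraries (columns), as log2 CPM minus the gene's mean over the libraries. Control library 2 is the lowest of the 9 for 21 genes and hypoplastic library 1 the highest for 22.

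Members also differed more among libraries of 1 group than other genes did. Their median standard deviation within groups was 0.377 on the log2 scale, against 0.204 over the 11392 genes with a mean of at least 1 CPM. The median ratio of the highest to the lowest library was 2.06 for the members and 1.55 for those genes. Within the controls, library 1 was the highest for 21 members and library 2 the lowest for 31, beside 26.2% and 39.1% of those genes. Within the hypoplastic group library 1 was the highest for 24 and library 3 the lowest for 29, beside 36.7% and 24.1%. Within the treated group library 2 was the highest for 26 and library 1 the lowest for 28, beside 33.5% and 28.2%. The most variable members within groups were Slc2a3 (SD 1.116 on the log2 scale), Ankrd37 (0.820), Adm (0.819) and Aldoc (0.758), and the steadiest were Ldhb (0.133) and Hk1 (0.143).

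The comparison of hypoplastic with control lungs asks how the pathway differs in the underdeveloped lung. Levels were higher in the hypoplastic group for 32 of the 35 genes, with a median log2 fold change of 0.26, against 51.9% of all 12966 genes tested being higher and a median of 0.01. None of the 35 passed the test. edgeR's quasi-likelihood test with Benjamini-Hochberg adjustment over all genes called 1 gene (0.00771%), which is not a member, and the smallest adjusted p of a member was 0.323. The unadjusted p was under 0.05 for 4 members, all higher (Slc2a3, Pgk1, Slc16a3 and Car9), beside 6.67% of all genes higher and 5.69% lower. DESeq2, which called 202 genes, and limma voom, which called 1, likewise called 0 members, with 6 and 4 at an unadjusted p under 0.05. The library values of the groups lay apart for 2 members, Slc2a3 and Pgk1, both higher, beside 7.67% of all genes higher and 9.05% lower. In whole lungs, a difference in the number of cells of a type and a difference in RNA per cell cannot be told apart.

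The count of higher members was smaller without either of 2 libraries. Without control library 2 it was 25 of 35 (median log2 fold change 0.15), and without hypoplastic library 1 it was 23 (0.12). With both left out, an alternative chosen after the values were seen, 18 of 35 were higher with a median of 0.02. Because these 2 libraries were picked as the ones in which most members were lowest and highest, a smaller difference follows from that choice, here and for each gene given without both, and it supports nothing by itself. Without any other single library of these groups the count was 30 to 34.

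**Figure D2:**
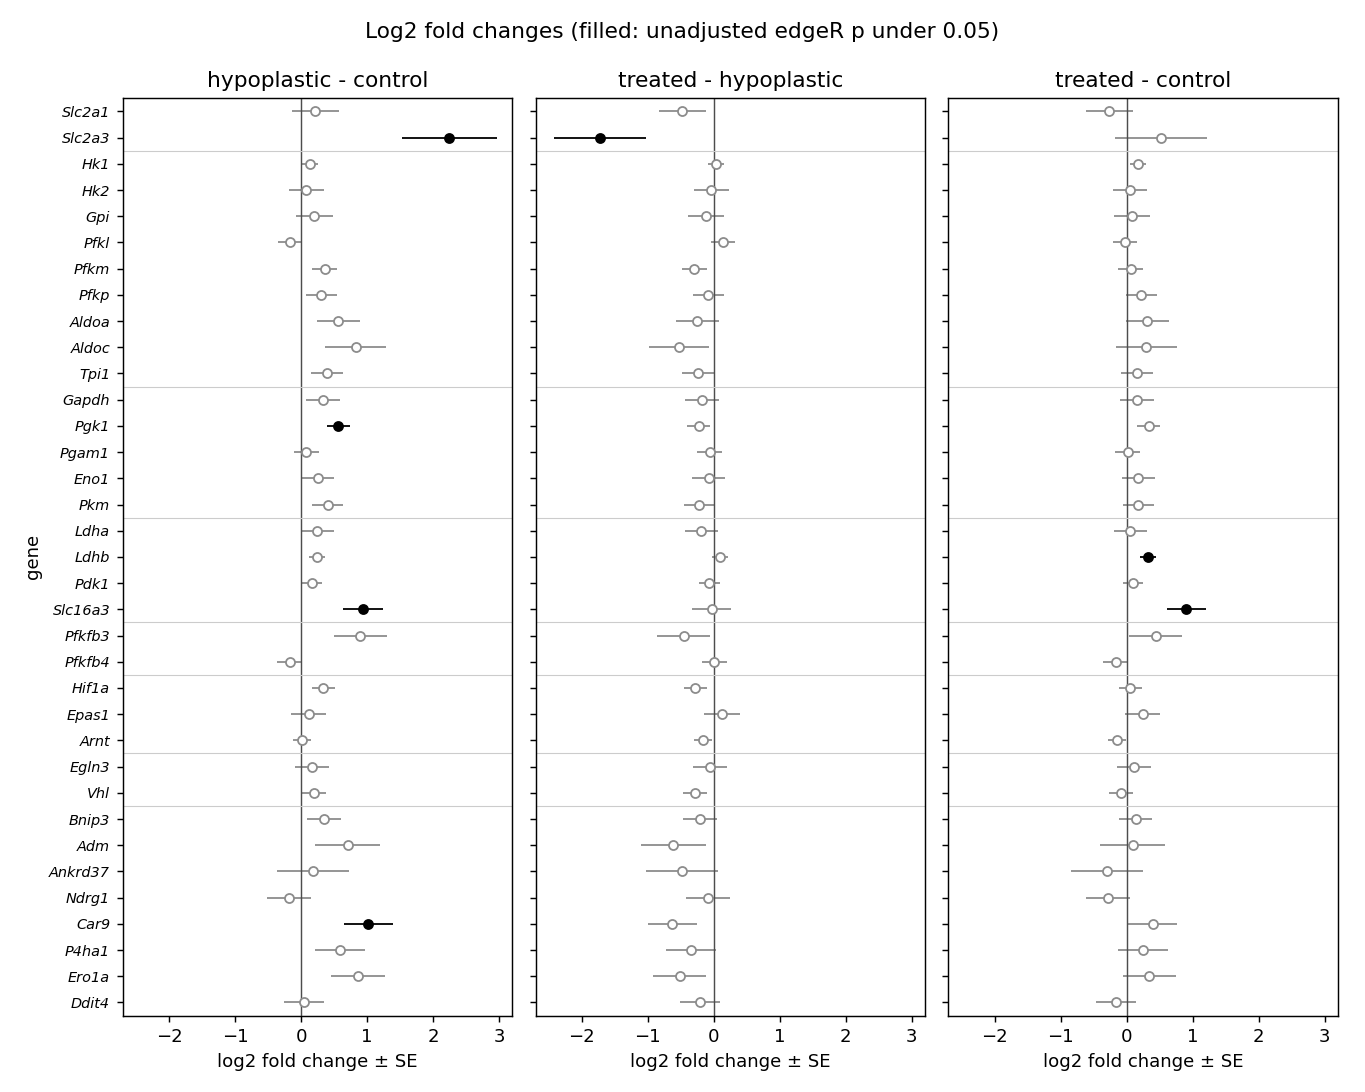
Log2 fold change with its SE for each of the 35 genes in the 3 comparisons, all from 1 fit with 3 libraries a group. Filled points have an unadjusted edgeR p under 0.05 (4, 1 and 2 genes), and no gene passed after adjustment.

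The treated and hypoplastic lungs were compared to see the levels with and without vesicles, and most members were lower in the treated group. Of the 35, 30 had a negative and 5 a positive log2 fold change (Hk1, Pfkl, Ldhb, Pfkfb4 and Epas1), and the median was −0.21, against 51.9% of all genes lower and a median of −0.01. edgeR's test called 0 genes (0%), with a smallest adjusted p of 0.896 among the members. The unadjusted p was under 0.05 for 1 member, Slc2a3, which was lower, beside 2% of all genes higher and 3.56% lower. DESeq2 called 17 genes and limma voom 0, none of them a member, with 1 and 0 members at an unadjusted p under 0.05. Library values lay apart for 2 members, Slc2a3 and Vhl, both lower, beside 5.09% of genes higher and 4.74% lower. Without hypoplastic library 1 the split was 17 higher and 18 lower, with a median of −0.01. Without treated library 1 it was 11 higher and 24 lower. Within their groups, hypoplastic library 1 was the highest for 24 members and treated library 1 the lowest for 28. A smaller difference without either therefore follows from that choice. Without any other single library of these groups 2 to 7 were higher, with medians of −0.37 to −0.17.

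In treated against control lungs, 27 members were higher and 8 lower, and their median log2 fold change was 0.14 against 0.00 over all genes. edgeR again called no gene (0%), DESeq2 14 and limma voom 0, none of them a member, with 2 members at an unadjusted p under 0.05 by each of the 3 tools. These were Slc16a3 and Ldhb, both higher, beside 1.67% of all genes higher and 2.5% lower. Library values lay apart for 3 members, Slc16a3, Ldhb and Hk1, all higher, beside 4.37% of genes higher and 5.01% lower. Without control library 2 or without treated library 2 the split was 17 higher and 18 lower in each case, with medians of −0.04. These libraries were the lowest and the highest of their groups for most members, so a smaller difference follows from that choice. Without any other single library of these groups 27 to 31 were higher, with medians of 0.12 to 0.27. The comparisons share libraries in pairs, so the 3 counts are not independent of one another.

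**Figure D3:**
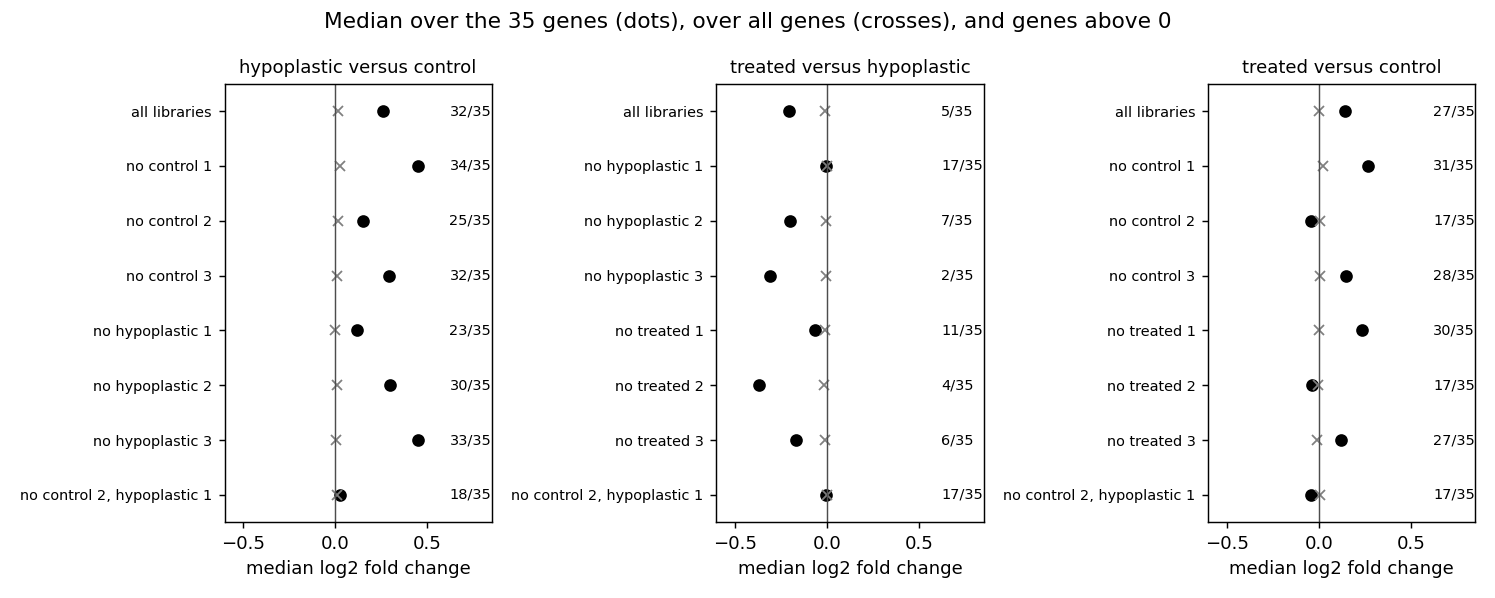
Median log2 fold change over the 35 genes (dots) and over all genes tested (crosses) with all libraries, without each library in turn, and without control library 2 and hypoplastic library 1 together. The count at the right of each row is of members with a log2 fold change above 0, which drops from 32 to 18 of 35 in hypoplastic against control lungs when both libraries are left out.

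Glucose enters cells through facilitative transporters. Slc2a1, which encodes GLUT1, the broadly expressed transporter, was at 771, 348 and 502 CPM in control libraries 1, 2 and 3, at 805, 678 and 402 CPM in the hypoplastic and at 306, 625 and 422 CPM in the treated libraries. The 3 groups overlapped, and each held libraries both above and below the mean of 540 CPM. Its log2 fold change was 0.22 (SE 0.35, edgeR adjusted p = 0.836) in hypoplastic against control lungs. It was −0.48 (SE 0.35, edgeR adjusted p = 0.940) in treated against hypoplastic lungs and −0.26 (SE 0.35, edgeR adjusted p = 0.998) in treated against control lungs.

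Slc2a3 encodes GLUT3, a high-affinity transporter of neurons and leukocytes. It was at 8.95, 1.68 and 7.99 CPM in the controls, at 14.5, 62.5 and 11.8 CPM in the hypoplastic and at 6.33, 8.89 and 11.7 CPM in the treated libraries. All hypoplastic libraries lay above all controls and, by the narrow gap of 11.8 to 11.7 CPM, above all treated libraries, and library 2 stood far above the other 2. The hypoplastic minus control log2 fold change was 2.25 (SE 0.72, edgeR adjusted p = 0.324), a 4.75-fold higher fitted level. Treated minus hypoplastic was −1.72 (SE 0.70, edgeR adjusted p = 0.896), and without hypoplastic library 2 these values were 1.08 and −0.56. Hypoplastic library 2 also held the highest summed level of the macrophage markers, as given with the markers of other cells, and whether the 2 are related was not tested.

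Of the 14 enzymes from hexokinase to pyruvate kinase, 13 were higher in hypoplastic than in control lungs (median log2 fold change 0.32) and 12 were lower in treated than in hypoplastic lungs (median −0.15). In treated against control lungs 13 were again higher, with a median of 0.16. None passed the test in any comparison. Pfkl, the liver form of phosphofructokinase, was the 1 enzyme lower in hypoplastic lungs, at 195 ± 30.2 CPM in controls and 173 ± 44.7 in hypoplastic lungs (mean ± SD, n = 3 each). Without control library 2, and likewise without hypoplastic library 1, 10 of the 14 were higher in hypoplastic than in control lungs. In treated against hypoplastic lungs 9 were higher and 5 lower without hypoplastic library 1 (median 0.04). In treated against control lungs 6 were higher and 8 lower without treated library 2 (median −0.04), and 8 higher and 6 lower without control library 2 (median 0.02). The libraries left out here were the lowest or highest of their groups for most members, so smaller differences follow from that choice. Without any other single library, 13 enzymes were higher in hypoplastic against control lungs. The count was then 0 to 5 in treated against hypoplastic and 13 to 14 in treated against control lungs.

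The hexokinases trap glucose as glucose 6-phosphate. Hk1, the form of most tissues, spanned only 41.9 to 56.2 CPM over the 9 libraries. In treated libraries it was at 49.5, 50.6 and 53.8 CPM, all above the controls at 48.6, 44.98 and 43.2 CPM. Hk2, the inducible form, ranged from 53.7 to 100 CPM, and its groups overlapped completely. Gpi, which interconverts glucose and fructose phosphates, ranged from 258 CPM in control library 2 to 562 CPM in hypoplastic library 1.

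Phosphofructokinase catalyses the committed step. Its muscle form Pfkm was at 32.8 ± 7.59 CPM in control, 42.1 ± 6.94 in hypoplastic and 34.3 ± 4.11 in treated lungs (mean ± SD, n = 3 each). The platelet form Pfkp was at 28.0 ± 6.88, 34.7 ± 9.55 and 32.7 ± 4.23 CPM. In both genes the group ranges overlapped, with control library 2 lowest and hypoplastic library 1 highest.

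The aldolases split the phosphorylated hexose. Aldoa was at 1486, 750.0 and 1630 CPM in the controls, at 2191, 2029 and 1495 CPM in the hypoplastic and at 1046, 2128 and 1634 CPM in the treated libraries. Aldoc, the brain form, had the widest span of the enzymes, from 8.03 CPM in control library 2 to 42.3 CPM in hypoplastic library 1, a ratio of 5.27. Hypoplastic means exceeded control means for both, and the library values overlapped in each comparison. Tpi1, which interconverts the triose phosphates, ranged from 369 CPM in control library 2 to 775 CPM in hypoplastic library 1.

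The second stage yields ATP. Gapdh, often used as a loading reference, was at 2864, 1910 and 2365 CPM in the controls, at 3856, 2658 and 2476 CPM in the hypoplastic and at 2145, 3472 and 2326 CPM in the treated libraries. Its highest library was at 2.02 times its lowest, so its level was not constant over these lungs. Near-identical copies were counted separately (Gapdhl6 at a mean of 3.57 CPM, Tpi1l1 at 0.401, Gapdh-ps1 at 0.0196 and Aldoart2 at 0.00522), and how reads were shared between copies is not known, which leaves the levels of Gapdh, Tpi1 and Aldoa uncertain to that extent.

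Pgk1, phosphoglycerate kinase, makes the first ATP of this stage. It was at 466, 324 and 443 CPM in the controls, at 639, 630 and 556 CPM in the hypoplastic and at 422, 629 and 508 CPM in the treated libraries. Every hypoplastic library lay above every control, while the treated libraries reached from within the control range up to the hypoplastic range. The log2 fold change was 0.57 (SE 0.18, edgeR adjusted p = 0.323) for hypoplastic against control lungs, a 1.48-fold higher level. It was −0.23 (SE 0.18, edgeR adjusted p = 0.940) for treated against hypoplastic and 0.34 (SE 0.18, edgeR adjusted p = 0.998) for treated against control lungs. With control library 2 and hypoplastic library 1 left out, the hypoplastic minus control value was 0.38.

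The other enzymes of this stage overlapped between groups. Pgam1, phosphoglycerate mutase, ranged from 409 to 605 CPM, Eno1, enolase, from 654 to 1289 CPM, and Pkm, pyruvate kinase, from 372 to 799 CPM. All 3 were highest in hypoplastic library 1, and Eno1 and Pkm were lowest in control library 2.

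**Figure D4:**
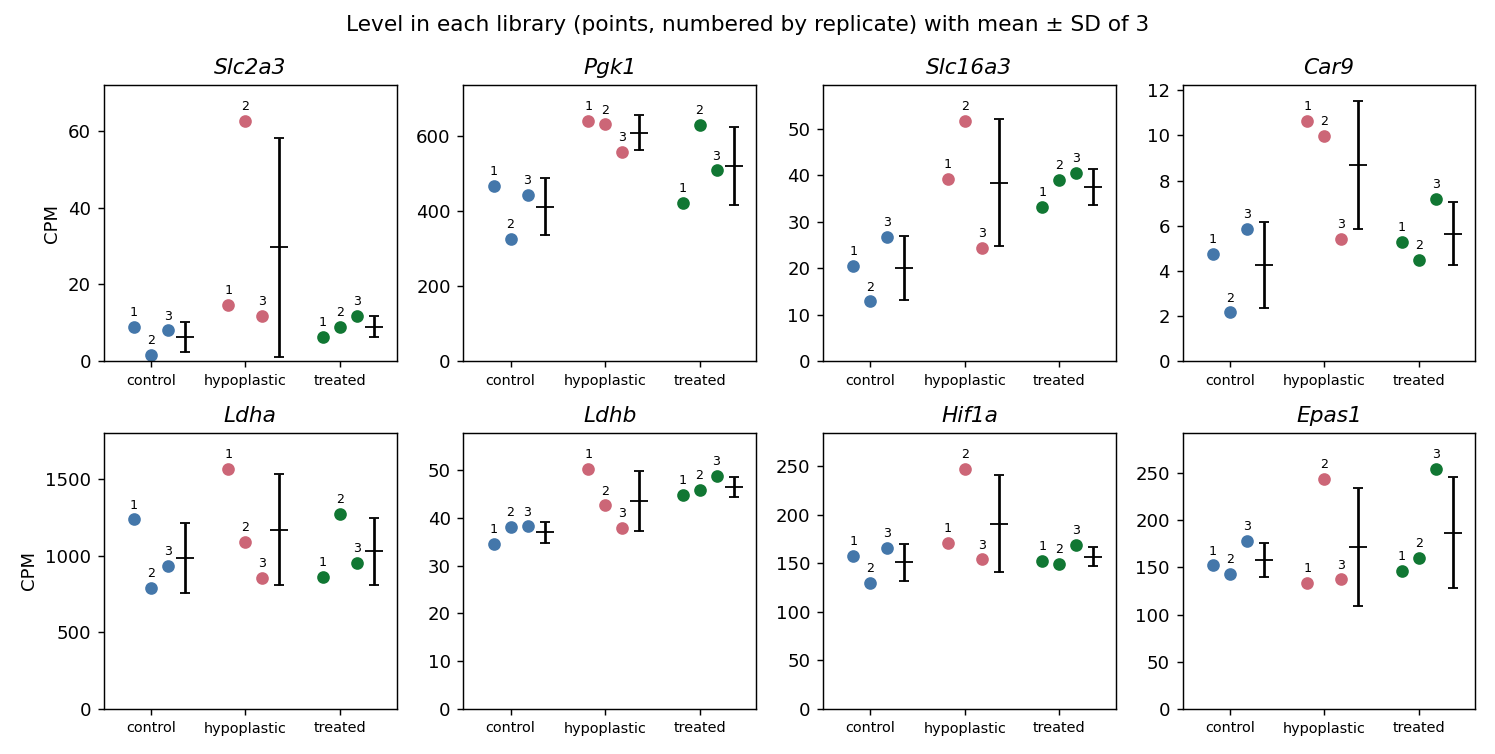
CPM of 8 members in each library (points, numbered by replicate) with the mean and SD of the 3 libraries beside them. Slc2a3 and Pgk1 are the 2 whose hypoplastic libraries all lie above the controls, while the treated libraries of Slc16a3 and Ldhb all lie above the controls.

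Pyruvate is either reduced to lactate or passed to mitochondria. Ldha, the lactate dehydrogenase subunit that favours lactate formation, was at 1236, 789 and 934 CPM in the controls, at 1567, 1089 and 854 CPM in the hypoplastic and at 861, 1274 and 950 CPM in the treated libraries. The groups overlapped throughout. Its log2 fold changes were 0.25 (SE 0.25, edgeR adjusted p = 0.724), −0.19 (SE 0.25, edgeR adjusted p = 0.960) and 0.06 (SE 0.25, edgeR adjusted p = 0.998) for the hypoplastic minus control, treated minus hypoplastic and treated minus control differences. The first became −0.02 without hypoplastic library 1.

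Ldhb encodes the subunit of oxidative tissues such as the heart. It was at 34.5, 38.2 and 38.3 CPM in the controls, at 50.4, 42.7 and 37.9 CPM in the hypoplastic and at 44.8, 45.9 and 48.9 CPM in the treated libraries. All treated libraries lay above all controls, within a narrow range, and the treated minus control log2 fold change was 0.33 (SE 0.12, edgeR adjusted p = 0.998). Pdk1, the kinase that holds pyruvate back from mitochondrial oxidation, stood at 64.5 CPM in hypoplastic library 1 and between 42.0 and 52.9 CPM in the other 8.

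Slc16a3 encodes MCT4, which exports lactate. It was at 20.4, 12.9 and 26.8 CPM in the controls, at 39.2, 51.7 and 24.4 CPM in the hypoplastic and at 33.2, 39.0 and 40.6 CPM in the treated libraries. Hypoplastic library 3 lay within the control range and the other 2 above it, whereas all treated libraries lay above all controls. The log2 fold change was 0.94 (SE 0.30, edgeR adjusted p = 0.323) for hypoplastic and 0.91 (SE 0.30, edgeR adjusted p = 0.998) for treated against control lungs. Over the 15 alternatives the first value ranged from 0.67 to 1.21, and its adjusted p from 0.0774 with DESeq2 to 0.762.

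The bifunctional enzymes PFKFB3 and PFKFB4 set the level of an activator of phosphofructokinase. Pfkfb3 was at 51.2, 25.1 and 62.5 CPM in the controls, at 49.1, 119 and 90.7 CPM in the hypoplastic and at 50.4, 47.9 and 90.1 CPM in the treated libraries. Unlike most members it was low in hypoplastic library 1 and high in libraries 2 and 3 of that group. Pfkfb4 stayed between 5.90 and 9.46 CPM in all libraries, and its means were 7.43 ± 1.83 in control, 6.58 ± 0.0609 in hypoplastic and 6.62 ± 0.508 in treated lungs (mean ± SD, n = 3 each).

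None of the HIF subunits passed the test. Hif1a, the alpha subunit that drives the glycolytic targets, was at 158, 130 and 166 CPM in the controls, at 171, 248 and 154 CPM in the hypoplastic and at 153, 150 and 169 CPM in the treated libraries. Hypoplastic library 2 stood above the other 8, and the groups overlapped. The log2 fold changes were 0.34 (SE 0.17, edgeR adjusted p = 0.458) for hypoplastic minus control, −0.28 (SE 0.17, edgeR adjusted p = 0.921) for treated minus hypoplastic and 0.06 (SE 0.17, edgeR adjusted p = 0.998) for treated minus control. Without hypoplastic library 2 the first was 0.11, its lowest value over the 15 alternatives. Its highest was 0.47, without hypoplastic library 3.

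Epas1, which encodes HIF-2 alpha and is strong in endothelium and alveolar type II cells, was at 152, 143 and 179 CPM in the controls, at 134, 244 and 137 CPM in the hypoplastic and at 146, 160 and 255 CPM in the treated libraries. The 2 high values came from hypoplastic library 2 and treated library 3. Log2 fold changes were 0.12 (SE 0.27, edgeR adjusted p = 0.884), 0.12 (SE 0.27, edgeR adjusted p = 0.969) and 0.24 (SE 0.27, edgeR adjusted p = 0.998) in the same order of comparisons, and the first was −0.22 without hypoplastic library 2. Arnt, their shared partner, ranged from 62.3 to 86.9 CPM with group means of 79.6 ± 11, 80.2 ± 5.85 and 71.8 ± 9.83 CPM (mean ± SD, n = 3 each).

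Among the genes that destroy HIF alpha, Egln3 encodes a prolyl hydroxylase that is itself a HIF target. It was at 47.7, 41.9 and 51.1 CPM in the controls, at 66.7, 58.9 and 32.5 CPM in the hypoplastic and at 42.4, 66.1 and 43.8 CPM in the treated libraries. The hypoplastic libraries held both its highest and its lowest value. Its log2 fold changes were 0.17 (SE 0.26, edgeR adjusted p = 0.824), −0.05 (SE 0.26, edgeR adjusted p = 0.984) and 0.12 (SE 0.26, edgeR adjusted p = 0.998) in the order above.

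Vhl, the recognition subunit of the ubiquitin ligase, was at 75.8, 51.4 and 80.2 CPM in the controls, at 77.1, 86.0 and 74.1 CPM in the hypoplastic and at 51.6, 72.5 and 70.9 CPM in the treated libraries. All treated libraries lay below all hypoplastic ones, by a gap of 72.5 to 74.1 CPM. The hypoplastic and control libraries overlapped.

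Of the 8 further HIF targets, 7 were higher in hypoplastic than in control lungs (median log2 fold change 0.47), and all 8 were lower in treated than in hypoplastic lungs (median −0.41). In treated against control lungs 5 were higher and 3 lower. None passed the test. Car9, carbonic anhydrase IX, a cell-surface enzyme of pH control and a strongly hypoxia-inducible gene, was at 4.75, 2.16 and 5.86 CPM in the controls, at 10.6, 9.99 and 5.43 CPM in the hypoplastic and at 5.30, 4.47 and 7.17 CPM in the treated libraries. Hypoplastic libraries 1 and 2 lay above the other 7 libraries, and library 3 within the control range. Car9 differed by 1.02 on the log2 scale (SE 0.37, edgeR adjusted p = 0.354) between hypoplastic and control lungs, by −0.63 (SE 0.37, edgeR adjusted p = 0.915) between treated and hypoplastic and by 0.39 (SE 0.37, edgeR adjusted p = 0.998) between treated and control lungs. The first value was 0.54 with control library 2 and hypoplastic library 1 left out.

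Bnip3, an inducer of mitophagy, was at 113, 70.8 and 115 CPM in the controls, at 176, 110.0 and 94.5 CPM in the hypoplastic and at 91.2, 121 and 118 CPM in the treated libraries. Hypoplastic library 1 was alone at the top, and the groups overlapped. Its log2 fold changes were 0.35 (SE 0.25, edgeR adjusted p = 0.596), −0.21 (SE 0.25, edgeR adjusted p = 0.955) and 0.14 (SE 0.25, edgeR adjusted p = 0.998) in the order above, and the first was −0.16 with control library 2 and hypoplastic library 1 left out.

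Adm, the vasodilator peptide adrenomedullin, was at 30.4, 7.80 and 33.6 CPM in the controls, at 42.0, 52.7 and 22.7 CPM in the hypoplastic and at 17.0, 32.2 and 27.5 CPM in the treated libraries. Ero1a, the oxidase that forms disulfide bonds in the endoplasmic reticulum, was at 96.5, 42.8 and 104 CPM in the controls, at 132, 228 and 82.9 CPM in the hypoplastic and at 73.0, 120 and 117 CPM in the treated libraries. P4ha1, a collagen prolyl hydroxylase, was at 668, 227 and 686 CPM in the controls, at 963, 760 and 657 CPM in the hypoplastic and at 433, 806 and 637 CPM in the treated libraries. In all 3 genes control library 2 was the lowest of the 9, and hypoplastic library 3 lay below control libraries 1 and 3.

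Ankrd37, an ankyrin repeat gene induced in hypoxia, ranged from 5.30 CPM in treated library 1 to 25.9 CPM in hypoplastic library 1. Ndrg1, a stress-responsive gene, was at 885 ± 212 CPM in control, 780 ± 320 in hypoplastic and 731 ± 269 in treated lungs (mean ± SD, n = 3 each), and it was the 1 further target that was lower in hypoplastic lungs. Ddit4, an inhibitor of mTORC1 signalling, ranged from 91.4 CPM in treated library 1 to 220 CPM in treated library 2, so that its extremes fell within 1 group. In these 3 genes no pair of groups was apart.

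Other genes of the same pathways were given by a list of 53, of which 51 were in the table and 43 tested. None was called. In hypoplastic against control lungs 21 were higher and 22 lower, and the median log2 fold change was −0.02. At an unadjusted p under 0.05, 2 were higher (P4ha2 and Angptl4) and 6 lower (Fbp2, Gys1, Hif3a, Car12, Pfkfb1 and Bnip3l), which is 4.65% and 14% of the 43, beside 6.67% and 5.69% of all genes. Library values of these groups lay apart for 2 higher and 9 lower genes of the 43, beside 7.67% and 9.05% of all genes. Those of Angptl4, Gys1 and Bnip3l overlapped. Angptl4 was at 55.5 CPM in hypoplastic library 2 and at most at 3.37 CPM in the other hypoplastic and the control libraries. Gys1 and Bnip3l were highest in control library 2, at 144.5 and 314.8 CPM. Between treated and hypoplastic lungs, no listed gene reached an unadjusted edgeR p under 0.05, beside 2% of all genes higher and 3.56% lower. Between treated and control lungs 1 did, Slc16a1, which was lower, beside 1.67% of all genes higher and 2.5% lower.

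P4ha2, like P4ha1 a collagen prolyl hydroxylase, was at 27.0, 19.6 and 25.1 CPM in the controls and at 35.97, 52.1 and 29.1 CPM in the hypoplastic libraries, with no overlap and a difference of 0.71 on the log2 scale (SE 0.21, edgeR adjusted p = 0.317). Hif3a, an alpha subunit whose short forms restrain the others, was at 222, 308 and 202 CPM in the controls and at 193, 151 and 161 CPM in the hypoplastic libraries, all below the controls (log2 fold change −0.54, SE 0.19, edgeR adjusted p = 0.350). Vegfa, the vascular growth factor and a widely used HIF target, differed by 0.13 on the log2 scale (SE 0.15, edgeR adjusted p = 0.748), with overlapping groups. Gluconeogenesis and glycogen genes were lower in hypoplastic lungs for 7 of 8 tested (median −0.27), beside 48.1% of all genes lower. Further glycolysis genes were lower for 8 of 14 (median −0.03), and further HIF regulators and targets for 7 of 21 (median 0.13). Of the 8 gluconeogenesis and glycogen genes, Gys1, Gbe1 and Pygl had their highest value of the 9 libraries in control library 2, and Pygm its lowest. Pck2 was at 51.57 CPM there, against its highest value of 51.64 CPM in treated library 1. Fbp2 and Pygb were there at 2.863 and 213 CPM, against highest values of 2.892 and 216.3 CPM in control library 1. The part of control library 2 in the lower levels of this list was not tested. Fbp2, the muscle fructose bisphosphatase, had the lowest log2 fold change of the 8, −0.95 (SE 0.23, edgeR adjusted p = 0.317). Fbp2 was at 2.89, 2.86 and 2.14 CPM in the controls and 1.62, 1.20 and 1.25 CPM in the hypoplastic libraries.

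Markers of other cells also differed between these libraries. The summed heart muscle markers (9 of 9 in the table, 7 with counts in every library) were at 287 and 142 CPM in hypoplastic libraries 1 and 2, at 24.9 CPM in library 3, and at 27.4 to 53.3 CPM in control and 28.9 to 38.4 CPM in treated lungs. Skeletal muscle markers (8 of 9 in the table, 3 with counts in every library) summed to 9.13 to 10.9 CPM in control, 13.5 to 17 in hypoplastic and 10.2 to 14.9 in treated lungs, with the control and hypoplastic sums apart. Neutrophil markers (6 of 8 with counts in every library) summed to 7.17 to 14.1 CPM in control, 56.3 to 99.2 in hypoplastic and 19.6 to 83.7 in treated lungs. Macrophage markers (7 of 8) summed to 27.3 to 103, 77.2 to 239 and 67.4 to 200 CPM, with the lowest sum in control library 2 and the highest in hypoplastic library 2. Red cell markers (10 of 10 in the table) summed to 12310 CPM in control library 2, the highest of the 9, and to 3710 to 7422 CPM in the other 8. Lung epithelial markers summed to 3430 to 5390 CPM in control, 2560 to 3120 in hypoplastic and 3120 to 3860 in treated lungs, so the control libraries lay above all hypoplastic ones. The part of these cells and of sex in the levels of the 35 genes was not tested, beyond a fit with sex as a term, in which 28, 6 and 21 of the 35 were higher in the 3 comparisons in the order above.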

How the data were processed

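Total RNA of 9 fetal rat lungs was sequenced after ribosomal RNA depletion, per the labels' protocols. The authors deposited 1 table of estimated counts (19.5% of nonzero values whole), which were rounded here. The submitters' processing notes name rn7 and DESeq2, while aligner, counter and annotation were not given in the sources used here. Symbols came from RefSeq (GRCr8, names only), with 17314 of 17465 IDs matched.

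Members, lists and tests were chosen with earlier results of these data known. All 9 libraries entered 1 edgeR quasi-likelihood fit (glmQLFit and glmQLFTest, edgeR 4.0.16, R 4.3.3) with TMM normalization and filterByExpr, which leaves 6 residual degrees of freedom. Benjamini-Hochberg adjustment ran over 12966 genes, and calls needed an adjusted p under 0.05. SEs are |log2 fold change| divided by the square root of F and are approximate. CPM used TMM-scaled totals. Levels are not compared between genes, since transcript lengths were not used. Log2 fold changes are given for members with an unadjusted p under 0.05 in that comparison and, in each, for Hif1a, Epas1, Egln3, Slc2a1, Ldha, Pgk1, Car9 and Bnip3. Of the list of other pathway genes, 1 gene is not reported here and was left out of its counts, and P4ha2, Hif3a, Vegfa and Fbp2 were chosen after their values were seen. Alternatives were DESeq2 1.42.0, limma voom (limma 3.58.1), RLE size factors, no filter, a sex term, a replicate block, only the 6 libraries compared, removal of rRNA and 7SL rows, and leaving out libraries. The test scripts were tested on simulated data.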

Additional observations from a re-analysis of the deposited data

How the results depend on the processing

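Leaving out 1 library or fitting another model called no member in any comparison. DESeq2 called 202, 17 and 14 genes (none a member) in the hypoplastic minus control, treated minus hypoplastic and treated minus control comparisons, and the cause was not tested. In treated against hypoplastic lungs, the number of members at an unadjusted p under 0.05 was 0 with limma voom, with the sex term and with the replicate block. The replicate numbers showed no pairing of the libraries (correlations of same-numbered libraries −0.397 to 0.33, with 3 of 9 above 0.1, and 0 libraries correlating best with their own number). With values centred within groups of 3 libraries, these correlations cannot show that same-numbered libraries were unrelated. The replicate block called 2, 0 and 0 genes, with 4, 0 and 2 members at an unadjusted p under 0.05, and changed no call of a member. The fit of only the 6 libraries compared called 4 genes in hypoplastic against control lungs.

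With the sex term the log2 fold change of Egln3 turned to −0.0378 in hypoplastic against control and to −0.0509 in treated against control lungs, and that of Ldha to −0.0254 in the latter. With control library 2 and hypoplastic library 1 left out (chosen after the data were seen), 3, 1 and 1 genes were called in the 3 comparisons, with 3 and 1 members at an unadjusted p under 0.05 in the last 2. Hypoplastic against control values were then −0.11 for Egln3, −0.24 for Slc2a1, −0.16 for Ldha and −0.16 for Bnip3. Treated against hypoplastic values were −0.0263 for Epas1, 0.15 for Egln3, 0.082 for Ldha and 0.10 for Bnip3. Treated against control values were −0.0428 for Hif1a, −0.0773 for Ldha and −0.0546 for Bnip3.

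Leaving out 1 library at a time, hypoplastic against control gave 0 to 45 called genes and 2 to 9 members at an unadjusted p under 0.05, with log2 fold changes of −0.0369 to 0.42 for Egln3, −0.22 to 0.27 for Epas1, −0.0222 to 0.45 for Ldha and −0.02 to 0.57 for Slc2a1. The 45 genes were called without hypoplastic library 3. Treated against hypoplastic gave 0 to 44 genes and 0 to 3 members, with −0.38 to 0.10 for Bnip3, −0.30 to 0.15 for Egln3, −0.16 to 0.46 for Epas1 and −0.37 to 0.0824 for Ldha. Treated against control gave 0 to 1 genes and 1 to 4 members, with −0.0543 to 0.26 for Bnip3, −0.12 to 0.23 for Egln3, −0.0437 to 0.39 for Epas1, −0.0426 to 0.13 for Hif1a, −0.12 to 0.27 for Ldha and −0.57 to 0.10 for Slc2a1. The mean of Pfkfb4 in hypoplastic lungs was 6.46 CPM of the plain library total. Car9 had the lowest mean of the members, 6.19 CPM, and the effect of depth was not tested.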
